A study of Mus musculus with 2 samples.

Results

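The 31 genes described here encode the contractile apparatus of smooth muscle and the markers of pericytes, the contractile cells wrapped around small vessels. They were chosen by gene symbol, with earlier results of these data known. All 31 of them were found among the 18194 genes that an Affymetrix mouse expression array measured with a probe set naming a single gene. The study compared the proximal section of the intestine, the upper part of the gut, of wild-type (WT) C57BL/6 mice with that of C57BL/6 mice carrying a germline deletion of Cd36 (CD36KO), the receptor for long-chain fatty acids and thrombospondin. The deletion is therefore present in every cell type, and both groups were fed chow. RNA of 3 animals was pooled per genotype and each pool was measured on 1 array, so that n = 1 per group, no test was possible, and no difference below could be set against the spread between animals or arrays. The labels give neither age nor sex of the mice.

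Smooth muscle of the gut wall contracts when calcium and calmodulin activate myosin light chain kinase, which phosphorylates the regulatory light chain of myosin and lets myosin pull on actin. Myosin phosphatase reverses this step, and the force is carried to the membrane through dense bodies, dense plaques and intermediate filaments. Most genes of this apparatus are switched on by serum response factor (SRF) and its coactivator myocardin. Pericytes share part of the programme and carry the PDGF receptor beta and the NG2 proteoglycan.

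The level of each gene was the deposited log2 value of its probe set with the highest mean over both arrays. Differences are CD36KO minus WT on that log2 scale, so that 1.5-fold corresponds to 0.58. Levels of different probe sets are not compared, because probes differ in how strongly they bind. A gene counted as above the expression filter where the higher of its values reached 4.51, which is the median of the higher values of all 45101 probe sets. Of the 31 genes, 29 were above it on both arrays, and Kcnmb1 and Notch3 were below it on both.

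Many of the contractile genes had higher values in the CD36KO pool, while the pericyte markers were close to level at the probe sets used. Among the 29 genes that passed the filter, 9 had values at least 1.5-fold higher in CD36KO, namely Csrp1, Myl9, Tagln, Actg2, Ppp1r14a, Myh11, Pgm5, Hspb6 and Cnn1. That is 31% of them, where 5.31% of all 11981 genes that passed the filter were. None of the 29 was at least 1.5-fold lower, where 3.31% of all genes were. The 29 genes had a median of 0.38, and 25 of them (86.2%) had a difference above 0, where the median of all genes was -0.0059 and 48.8% of them had a difference above 0. At the probe sets used, none of the 29 reached 2-fold in either direction, where 1.61% of all genes were higher and 0.626% lower by that much. Other probe sets of Csrp1, Tpm1, Cald1, Mylk and Rgs5 were more than 2-fold higher, as described below. All 9 genes were among the 24 whose higher value reached 6.60, the 75th percentile of all probe sets, and none was among the 5 between the filter and that level. In RNA of whole tissue, more cells of a type and more RNA per cell cannot be told apart.

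**Figure D1:**
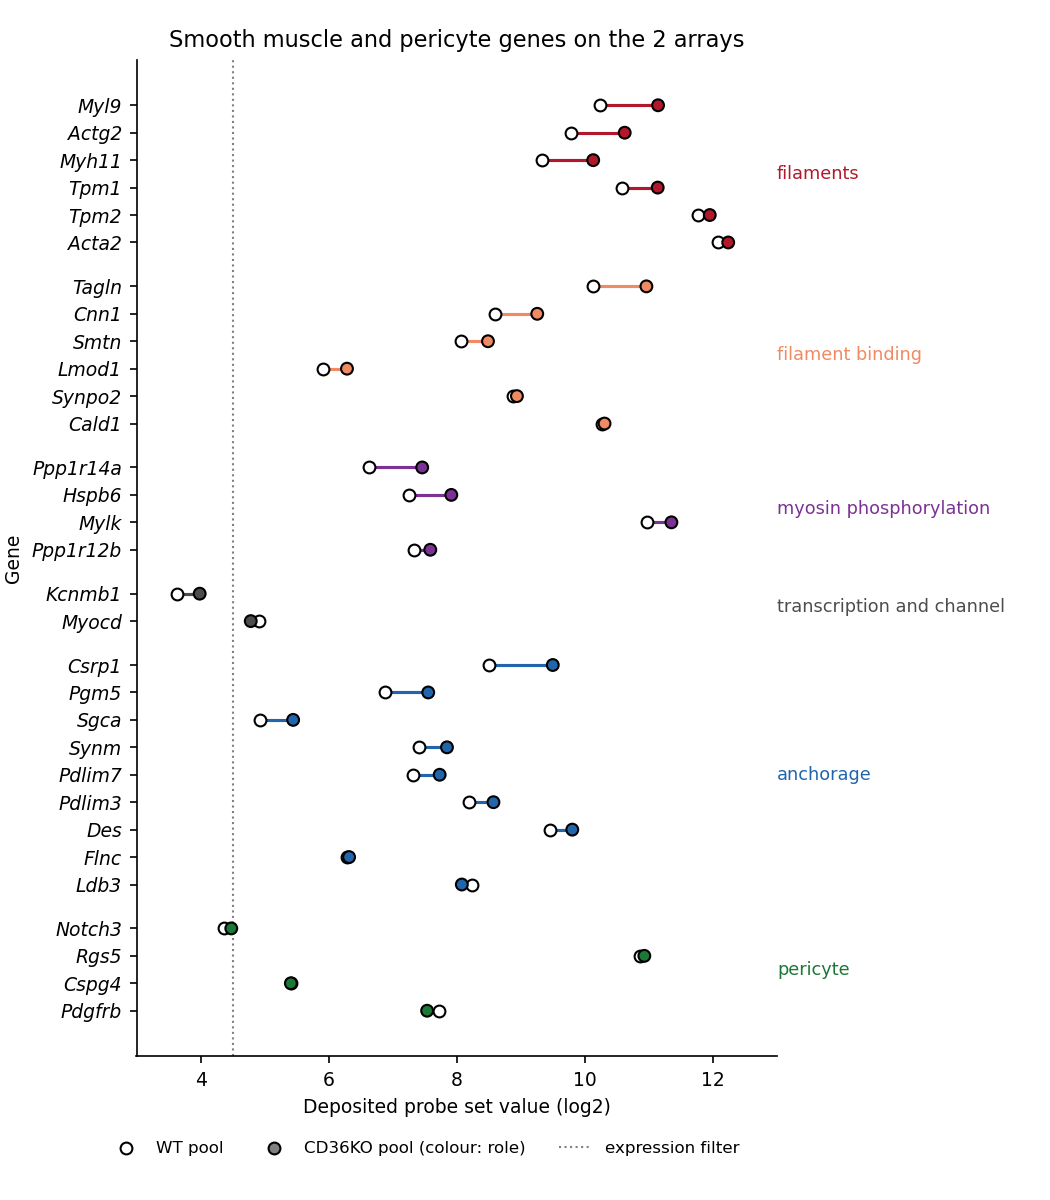
Deposited log2 values (x axis) of the 31 genes (rows, grouped by role) in the WT pool (open points) and the CD36KO pool (filled points), 1 array each, with the expression filter of 4.51 as a dotted line. The lines are longest for Csrp1 (0.99), Myl9 (0.91) and Tagln (0.84), and the pericyte markers show almost none.

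Filament genes. At the probe sets used, the smooth muscle myosin and the visceral actin differed by more than the vascular actin. At its second probe set, which had a lower reading, the myosin gene Myh11 differed by only 0.14. The probe set used for Acta2 is marked as shared with other transcripts, so signal of related genes may enter it. Actg2, the gamma actin typical of visceral smooth muscle, read 9.79 in WT and 10.62 in CD36KO, 1.79-fold higher. Acta2, the alpha actin of vascular smooth muscle and myofibroblasts that visceral muscle also makes, read 12.08 and 12.24, a difference of 0.15. The difference of Actg2 exceeded that of Acta2 by 0.68, and whether this is more than the error of the arrays cannot be said. Myh11, the heavy chain of smooth muscle myosin, read 9.33 in WT and 10.13 in CD36KO (1.74-fold higher). Its regulatory light chain Myl9 read 10.23 and 11.14 (1.88-fold higher), the largest difference among the filament genes at the probe sets used. The tropomyosins, which lie along the actin filament, differed less. Tpm1 read 10.58 and 11.14, a difference of 0.56 just under the 1.5-fold threshold, and Tpm2 read 11.76 and 11.95, a difference of 0.19. The 6 filament genes had a median difference of 0.68, with 3 of 6 at least 1.5-fold higher.

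SRF binds the CArG box, a motif of 10 bases with CC at its start, GG at its end and only A or T at the 6 bases between. The 250 bases upstream of annotated transcription starts were searched in RefSeq promoters of GRCm38.p6 for the CArG box and for a CArG-like box with exactly 1 G or C among the inner bases. Both forms read the same on either strand in this search. A promoter was found for 26 of the 31 genes, with 32 windows in all. A CArG box was present in 3 of the 32 windows (9.38%), and a box of either form in 8 (25%), which belong to the 7 genes Acta2, Flnc, Hspb6, Ldb3, Myl9, Pdlim3 and Synm. Among all 32851 windows these shares were 1.47% and 8.59%. Some genes have overlapping windows, and both windows of Ldb3 hold the same box. The 3 promoters below are shown because they carry such boxes while their genes differed by 0.91 (Myl9), 0.15 (Acta2) and -0.17 (Ldb3) between the pools. Each is printed 5′ to 3′ on the strand of its gene, ends at the base before the start, and has its CArG and CArG-like boxes in capitals. They lie at chr2:156775214-156775463 on the plus strand (Myl9), chr19:34255374-34255623 on the minus strand (Acta2) and chr14:34588682-34588931 on the minus strand (Ldb3).
Myl9: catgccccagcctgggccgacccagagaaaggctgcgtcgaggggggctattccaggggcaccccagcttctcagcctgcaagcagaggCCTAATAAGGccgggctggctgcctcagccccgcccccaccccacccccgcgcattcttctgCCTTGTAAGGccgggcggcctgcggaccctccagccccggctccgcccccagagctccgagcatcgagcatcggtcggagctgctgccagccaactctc
Acta2: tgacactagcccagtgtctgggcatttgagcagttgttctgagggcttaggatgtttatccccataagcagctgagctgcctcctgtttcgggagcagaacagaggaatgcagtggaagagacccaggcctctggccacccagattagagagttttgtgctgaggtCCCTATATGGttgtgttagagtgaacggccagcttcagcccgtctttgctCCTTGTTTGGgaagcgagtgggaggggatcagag
Ldb3: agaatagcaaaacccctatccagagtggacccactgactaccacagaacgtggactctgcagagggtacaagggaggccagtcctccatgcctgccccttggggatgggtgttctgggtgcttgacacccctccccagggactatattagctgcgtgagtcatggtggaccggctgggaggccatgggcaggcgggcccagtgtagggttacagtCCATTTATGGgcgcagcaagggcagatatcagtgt
Myl9 has a CArG box from 161 to 152 bases upstream of its start, and a CArG-like box from 99 to 90. Acta2 has CArG-like boxes from 84 to 75 and from 34 to 25 bases upstream. Ldb3 has a CArG box from 35 to 26 bases upstream. The other genes with a box of either form differed by 0.66 (Hspb6), 0.43 (Synm), 0.38 (Pdlim3) and 0.03 (Flnc). The 3 shown were picked by their differences, so their spread is no result about the boxes. Of the 9 genes at least 1.5-fold higher, Myl9 and Hspb6 have a box in the windows searched. Actg2, Myh11 and Tagln were not among the 26 genes searched. Whether the boxes and the differences are related was not tested. A match describes these letters and does not show that a factor binds there.

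Genes for proteins that bind the filaments ranged from 1.79-fold higher to almost level at the probe sets used. Tagln, which encodes the actin-bundling transgelin, read 10.12 in WT and 10.96 in CD36KO, 1.79-fold higher. Cnn1, calponin, which restrains actomyosin, read 8.60 and 9.26, 1.57-fold higher. Smtn (smoothelin, a marker of contractile smooth muscle) had a difference of 0.42, from 8.07 to 8.49, and Lmod1 (leiomodin, which nucleates actin filaments) one of 0.37, from 5.92 to 6.29. Synpo2 (synaptopodin 2, an actin-binding protein of dense bodies) read 8.88 and 8.94, and Cald1 (caldesmon, an inhibitor of actomyosin) read 10.26 and 10.31. The 6 genes had a median difference of 0.39, with 2 of 6 at least 1.5-fold higher.

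Genes that favour contraction and genes linked to relaxation, grouped here under myosin phosphorylation, had differences of the same sign at the probe sets used. Ppp1r14a encodes CPI-17, the inhibitor of myosin phosphatase, and read 6.64 in WT and 7.46 in CD36KO, 1.77-fold higher. Hspb6, a small heat shock protein linked to relaxation, read 7.26 and 7.91, 1.58-fold higher. The kinase that starts contraction, Mylk, read 10.98 and 11.35, a difference of 0.37. Ppp1r12b, a myosin-binding subunit of the phosphatase, read 7.34 and 7.59, a difference of 0.25. The median of these 4 genes was 0.52.

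The coactivator and the channel subunit among the 31 genes gave low readings. Myocd, the myocardin coactivator, read 4.91 in WT and 4.78 in CD36KO, a difference of -0.13 that is opposite in sign to the median of the contractile genes above, and its other probe set, at -0.21, was below the filter. Kcnmb1, the beta subunit of the large-conductance potassium channel of smooth muscle, read 3.63 and 3.99, below the filter on both arrays, where a difference was not detectable at this signal.

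Genes that anchor the contractile apparatus ranged from the highest difference of the 31 to below 0. Csrp1, a LIM protein of actin filaments in smooth muscle, read 8.51 in WT and 9.50 in CD36KO, 1.99-fold higher. Pgm5, aciculin, a protein of adhesion plaques, read 6.88 and 7.55, 1.60-fold higher. Sgca, a sarcoglycan of the dystrophin complex, had a difference of 0.52, from 4.93 to 5.45. The intermediate filament genes differed less, Synm (synemin) by 0.43, from 7.42 to 7.85, and Des (desmin) by 0.36, from 9.45 to 9.80. Of the PDZ-LIM genes, which tie actinin to its partners, Pdlim7 differed by 0.42 (7.31 and 7.73) and Pdlim3 by 0.38 (8.19 and 8.57), while Ldb3 read 8.25 in WT and 8.08 in CD36KO. Flnc, a filamin that crosslinks actin, was level at 6.29 and 6.32. The 9 genes had a median difference of 0.42, with 2 of 9 at least 1.5-fold higher.

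At the probe sets used, the pericyte markers were close to level. Rgs5, a regulator of G protein signalling abundant in pericytes, read 10.86 in WT and 10.93 in CD36KO. Pdgfrb, the PDGF receptor that recruits pericytes to vessels, read 7.72 and 7.54, a difference of -0.18. Cspg4, the NG2 proteoglycan, read 5.41 on both arrays, and Notch3, the Notch receptor of mural cells, read 4.37 and 4.48, below the filter. The median of the 3 genes that passed the filter was -0.0035, and 0 of 3 reached 1.5-fold. Other probe sets of Rgs5 and Pdgfrb gave higher differences, as described next.

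**Figure D2:**
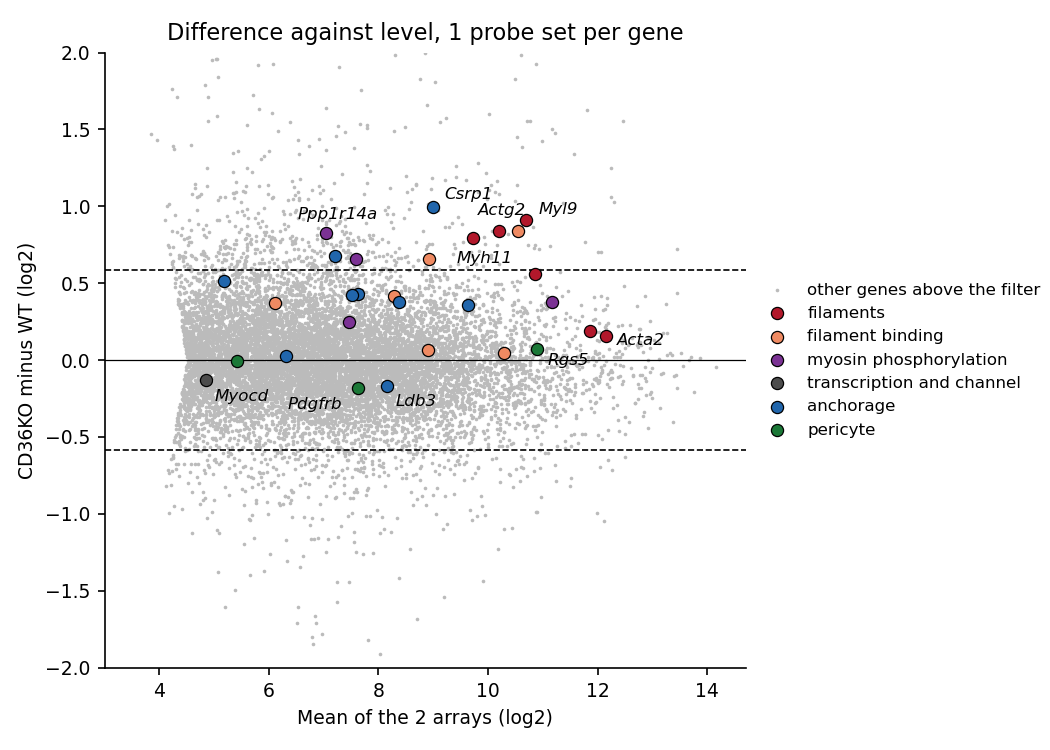
CD36KO minus WT difference (y axis, log2) against the mean of the 2 arrays (x axis, log2) for all 11981 genes above the filter (grey) and 29 of the 31 genes (coloured by role), with dashed lines at 1.5-fold. The y axis ends at 2 in each direction, which leaves 48 genes outside. Most of the coloured points lie above 0, and those past the upper line have means of 7.05 or more.

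Several genes gave different answers at different probe sets. The 31 genes had 68 probe sets, 51 of them above the filter. Of the 51, 15 (29.4%) had values at least 1.5-fold higher in CD36KO and 0 at least 1.5-fold lower, where the shares of all named probe sets that passed the filter were 6.86% and 3.46%. Of the 13 genes with several probe sets above the filter, 7 had probe sets whose differences lay at least 1.5-fold apart, and in 8 another probe set had a larger difference than the one used. In Tpm1, Cald1, Mylk and Rgs5 the probe set used was within 1.5-fold while another was past it. Mylk read 5.35 in WT and 6.54 in CD36KO at its lowest probe set, a difference of 1.19 against 0.37 at the one used. Cald1 read 5.29 and 6.56 at a probe set with a difference of 1.27, against 0.04. Tpm1 read 8.69 and 9.98 at its second probe set, a difference of 1.30, and 5.96 and 5.90 at another, a difference of -0.06. These probe sets may detect different transcripts of their genes, and which ones was not analysed here. Rgs5 had differences of 1.04 and 1.08 at probe sets that read 5.26 and 5.68 in WT, and of 0.33 at one that read 6.71. The Rgs5 probe sets at 1.08 and 0.33 carry suffixes by which the manufacturer marks probes shared with other transcripts. Pdgfrb had a difference of 0.51 at a probe set that read 4.88 in WT.

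Among the 9 genes at least 1.5-fold higher, 7 have a single probe set and offer no such check. Csrp1 was also higher at its second probe set, from 7.26 to 8.57, a difference of 1.30. Myh11 differed by 0.14 at its second probe set, which read 4.72 in WT and 4.85 in CD36KO. The probe sets used for Acta2, Cald1, Flnc and Notch3 carry the suffixes by which the manufacturer marks probes shared with other transcripts, so signal of related genes may enter them. The remaining probe sets of Acta2, at 0.55 and -0.04, were below the filter on both arrays.

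The pools differed in their signal towards the 5′ end of the control RNAs. At the beta-actin control the difference was 0.98 at the 5′ probe set, 0.56 at the middle and 0.04 at the 3′ probe set, and at GAPDH it was 0.47, 0.15 and -0.10. The 3′ minus 5′ gap of beta-actin was 2.28 in WT and 1.34 in CD36KO. The positions of the 31 genes' probe sets along their transcripts were not analysed here, so the part of this coverage in their differences was not tested.

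**Figure D3:**
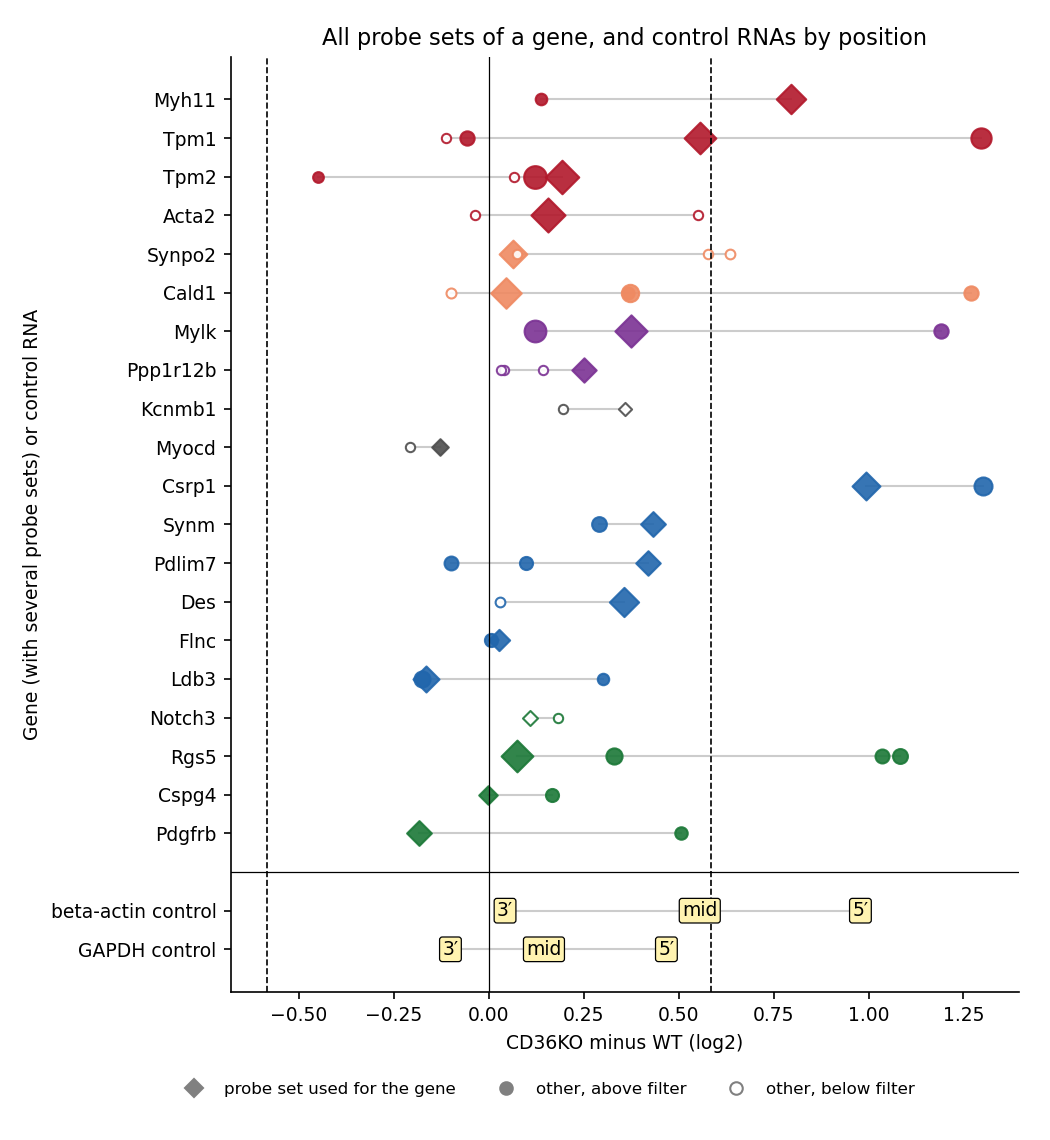
CD36KO minus WT difference (x axis, log2) at every probe set of the 20 genes with several, coloured by role, with diamonds for the probe set used, filled symbols above the filter and larger symbols for higher mean levels; dashed lines mark 1.5-fold. The lower rows give the beta-actin and GAPDH controls by position, where the difference falls from 0.98 and 0.47 at the 5′ end to 0.04 and -0.10 at the 3′ end.

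Other genes of the same pathways had smaller medians than the contractile groups. Over 6 lists of genes outside the 31, 58 passed the filter, 2 of them with values at least 1.5-fold higher in CD36KO and 0 at least 1.5-fold lower. The shares of all genes that passed the filter were 5.31% and 3.31%. The median over the 58 was 0.19, where that of all genes was -0.0059. Of the 58, 45 had a difference above 0, where 48.8% of all genes did, so these lists also leaned towards higher values. At the probe sets used, none of 8 genes of relaxation through cyclic nucleotides passed 1.5-fold, with a median of 0.13, nor any of 10 calcium channels, pumps and receptors, with a median of 0.05. Of the genes of the 6 lists, 32 had other probe sets above the filter, 46 in all. In 8 of the 32 one passed 1.5-fold towards higher values, among them Atp2a2 (1.00), Cacna1c (0.90), Gucy1b1 (0.68) and Pln (0.59). In 1, Pde5a (-0.67), one passed it towards lower values. The probe set of Cacna1c at 0.90 read 3.92 in WT and 4.82 in CD36KO, above the filter in CD36KO alone. Of all named probe sets that passed the filter, 6.86% were higher and 3.46% lower, which are shares per probe set and not per gene. The 8 regulators of the SRF programme had a median of 0.19, and Srf itself read 7.32 in WT and 7.52 in CD36KO. Of 15 genes of the membrane plaque and dystrophin complex, Sgce, a further sarcoglycan, was 1.56-fold higher (5.09 and 5.73). Its other probe set, at -0.30, was below the filter. The median of the 15 genes was 0.27, and 14 of them had a difference above 0. A list of 10 further genes held pericyte genes and Pdgfb, a ligand of the PDGF receptor rather than a pericyte marker. Of the 10, 5 were above the filter, with a median of 0.10 that is the value of Pdgfb. Kcnj8, a pore subunit of the ATP-sensitive potassium channel in mural cells, read 6.00 and 6.98, 1.97-fold higher. Abcc9, the partner subunit of that channel, read 7.09 and 7.22, with other probe sets at 0.65 and, below the filter, at 0.75.

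Markers of the cells around the muscle, measured in the same pools, moved by different amounts. Fibroblast markers were at least 1.5-fold higher for 6 of 8 genes, with a median of 1.15. Of these 6, Col1a2 and Col3a1 had a further probe set at 1.29 and 1.26, while Col1a1 had one at 0.06. Dcn also had one at -0.08 and Col1a2 one at -0.43, both below the filter. The summed unlogged level of the 8 fibroblast markers was 3310 in WT and 6858 in CD36KO. Such a sum is weighted towards the brightest probe sets, and the sums of different lists are not compared. Kit and Ano1, which mark interstitial cells of Cajal, the pacemakers of gut muscle, had a median of 0.74. They summed to 147 and 241, and each had another probe set at or below 0 (-0.01 and -0.11). Of 8 blood endothelial markers 2 were at least 1.5-fold higher, Pecam1 and Emcn, both above the filter in CD36KO alone, with a median of 0.41 for the list and sums of 360 and 416. Of 12 measured enteric neuron and glia markers 6 were above the filter, with a median of 0.13, none of them at 1.5-fold, and sums of 583 and 643. The 8 epithelial markers, which check for epithelium but not for the labelled gut segment, had a median of 0.08. None of them reached 1.5-fold, and they summed to 36041 and 38898.

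Striated muscle markers differed in both directions. Of 14 markers 5 were above the filter, 1 of them at least 1.5-fold higher (Actc1, 4.65 and 5.27) and 1 at least 1.5-fold lower (Acta1, 8.06 and 7.43). The skeletal and cardiac myosins Myh1, Myh2, Myh4, Myh6 and Myh7 were all below the filter on both arrays, and the 14 markers summed to 553 in WT and 455 in CD36KO. Of 7 mesothelial markers 2 were above the filter, with differences of 0.71 (Upk3b, above it in CD36KO alone) and -0.06 (Upk1b), and sums of 203 and 214. All 7 distal genes were at least 1.5-fold higher (median 2.08, sums of 1270 and 13299, with Fgf15 and Slc10a2 above the filter in CD36KO alone), 5 of 7 proximal genes at least 1.5-fold lower (median -1.09, sums of 16838 and 11437), and all 9 pancreas acinar genes at least 1.5-fold higher (median 1.81, sums of 5226 and 20251). The part of fibroblasts, segment, pancreas or endothelium in the differences of the 31 genes was not tested. Cd36, the check of the genotype labels, read 7.68 in WT and 6.02 in CD36KO at its used probe set, 7.70 and 5.87 at another, and 4.74 and 3.52 at the last. It was lower in CD36KO at each, but stayed above the filter of 4.51 at the first pair, and whether these probe sets lie in the deleted part is not stated in the labels.

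**Figure D4:**
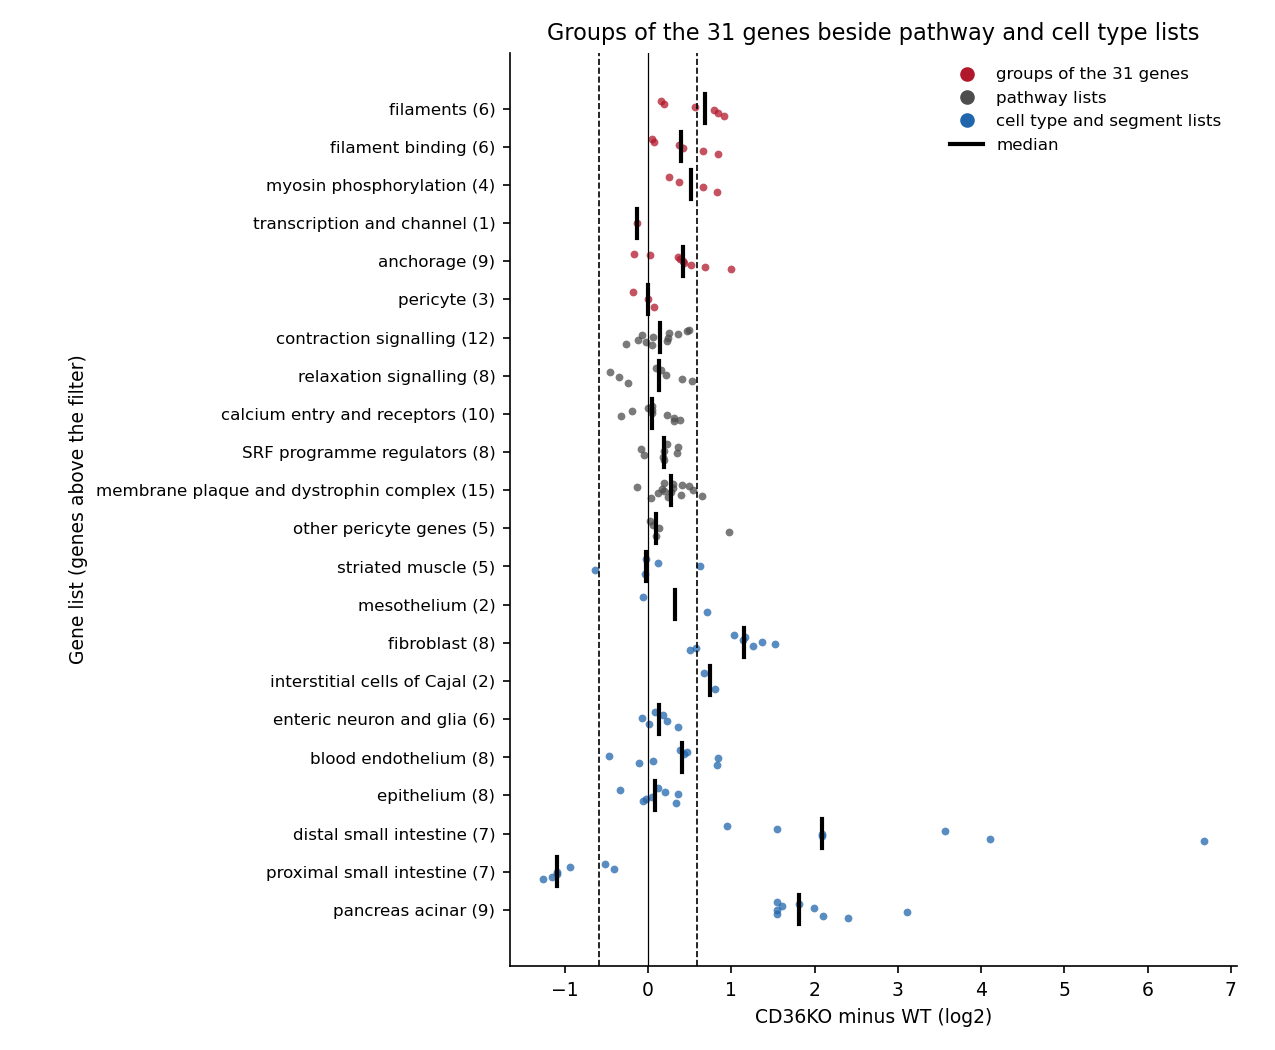
CD36KO minus WT difference (x axis, log2) of each gene above the filter in the groups of the 31 genes (red), in pathway lists that hold none of them (grey) and in lists of other cell types and gut segments (blue), with black bars at the medians and the number of genes in parentheses; dashed lines mark 1.5-fold. The filament group (0.68) lies above the pathway lists, whose medians run from 0.05 to 0.27, and below the fibroblast markers (1.15).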

How the data were processed

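RNA of 3 animals per genotype was pooled, labelled with biotin from 100 ng of total RNA and measured on 1 Affymetrix array per pool, per the labels' protocols. The authors deposited 1 table of log2 values for 45101 probe sets, with medians of 4.38 and 4.38. The log base follows from the values, whose maximum of 14.2 would exceed a scanner's range as a natural logarithm. How the values were summarized and normalized is not stated in these sources, and the deposited table has neither detection calls nor background.

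Of the probe sets, 34958 carried 1 symbol in the array's annotation, 932 several and 9211 none. The probe set with the highest mean was used per gene, the filter was 4.51 (11981 genes left), and the call threshold was 1.5-fold. No test was run with 1 array per group. The 31 genes and all lists were chosen with earlier results of these data known. List genes were matched by symbol or by a synonym of RefSeq's GRCm38.p6 gene table, and 67 of 74 pathway genes were found. All 31 genes are named, and in pathway lists the genes past 1.5-fold. Srf, Abcc9, Pdgfb, the genes named for their other probe sets and the markers named from other cell types were chosen after their values were seen. Sums of a list add its unlogged values. The calling step was run on simulated arrays with planted shifts larger than any difference of the 31 genes at the probe sets used. That checked the calculation only and says nothing about the error of the calls reported here. Alternatives were other scalings (median centring, a lowess trend of fraction 0.3 taken off, or quantile normalization) and other choices of probe set, filter and threshold. The work used Python 3.11.15 with NumPy 2.4.6 and pandas 2.3.3, statsmodels 0.14.6 for the lowess trend and matplotlib 3.10.9 for the plots.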

Additional observations from a re-analysis of the deposited data

How the results depend on the processing

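The count of 9 genes at least 1.5-fold higher was 8 or 9 under every scaling, filter and choice of probe set tried, and 0 genes were lower under each of them. Much of this was fixed beforehand. Of the 9 genes, 7 have a single probe set, which no choice of probe set could change. All 9 also reached the strictest filter of 6.60, so no filter tried could remove any of them. With the values and probe sets used above, the count was 0 at a threshold of 2-fold, where 1.61% of all genes passed. Csrp1 passed 2-fold with the lowess trend removed, at 1.01, and with the mean over probe sets, at 1.15. At a looser threshold of 0.32 on the log2 scale the count was 18, where 14.7% of all genes passed. Among the 9 genes Myh11 alone lost the threshold, at 0.47 with the mean over probe sets and 0.14 with the probe set of smallest difference. Rgs5 passed it with the mean over probe sets, at 0.63. The median of the genes above the filter ranged from 0.29 (probe set of smallest difference) to 0.42 (75th percentile filter). With the mean over probe sets the filament median was 0.44 and the pericyte median 0.16. The pericyte median, near 0, was -0.0074 with median centring, -0.044 with quantile normalization and -0.0076 with the lowess trend removed. Leaving out probe sets marked as shared with other transcripts, an alternative chosen after seeing the data, left the count at 9. None of the 9 genes uses such a probe set, so this step could add to the count but not lower it. The changes under other probe sets come from their different readings. No paired analysis was possible because each genotype is 1 pool on 1 array, and for the same reason no replicate could be left out. Precision is limited by having 2 arrays, and without detection calls a low reading cannot be told from no signal.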
